A study of Mus musculus with 18 samples.

Results

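Adult muscle was compared with young muscle: gastrocnemius from mice of 11 months against gastrocnemius from mice of 2 months, with 6 arrays at each age. These 12 arrays, taken by the age in their titles, are part of a series of 18, and each measured 15300 probesets. All animals were C57BL/6 males given no treatment, and every sample was snap-frozen muscle of both legs. The labels call the 6 samples of an age biological replicates and do not say how many animals went into each. Each age is a separate set of samples, so a rise or a fall below is a difference between sets. Age cannot be told apart from any other difference between the sets. The other 6 arrays, from males of 25 months, entered the common estimate of spread and show where a level stood later in life.

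Gastrocnemius, in the calf, holds mostly fast fibres. A mouse of the younger age still grows: its fibres thicken under growth hormone and insulin-like growth factors. Fibroblasts and tendon cells lay down collagen around the fibres. Transcripts of the developmental programme, such as cardiac actin, give way to adult isoforms as muscle matures. Whether such replacement goes on at the younger age was not tested here. At the older age growth has ended, and muscle is kept up by protein turnover, fuel use and defence against oxidants. The changes are ordered from the matrix and growth signals through the contractile apparatus to turnover, metabolism and the other cells of the tissue.

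The deposited values were linear intensities, and log2 was taken, so that every level below is a log2 intensity and every change is 11 minus 2 months. Array medians were 97.6 to 101 intensity units over the 18 arrays, and within an age arrays correlated with r of 0.987 to 0.996 across probesets, which are not independent replicates. The signal range of an array, the interquartile range of its log2 values, was 2.03 to 2.35 at 2 months and 2.25 to 2.45 at 11 months, and it moved with age and with brightness: the median change was -0.079 in the dimmest 25% of probesets and 0.094 in the brightest 25%. With the signal range as a covariate these medians were 0.0021 and 0.027. Fibre transcripts matched the labelled tissue, as the mean levels of skeletal actin Acta1, muscle creatine kinase Ckm and the fast fibre calcium buffer Pvalb lay between 13.51 and 14.10 at both ages.

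In all, 1820 of 15300 probesets rose (11.9%) and 1099 fell (7.18%) at an adjusted p under 0.05 in limma, a linear model fitted across all probesets and 18 arrays with Benjamini-Hochberg adjustment. A further quantile normalization gave 1328 and 1214, and a covariate for signal range 523 (3.42%) and 436 (2.85%). Most changes were small, with a median size of 0.26 among the calls. Changes of 1.5-fold or more were 85 rises and 53 falls, and changes of 2-fold or more 18 and 13. Taking for each of 13255 genes its brightest probeset, 1595 genes rose (12%) and 936 fell (7.06%). These shares are the background for every gene group below, and they take no account of brightness. Of 3825 probesets in the brightest 25%, 994 rose and 203 fell. Of 3825 in the dimmest 25%, 23 rose and 247 fell. A list of bright genes can therefore exceed the background of rises through its level alone. In 551 genes (4.16%) every 11 months array lay above every 2 months array, and in 315 (2.38%) every 11 months array lay below.

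**Figure D1:**
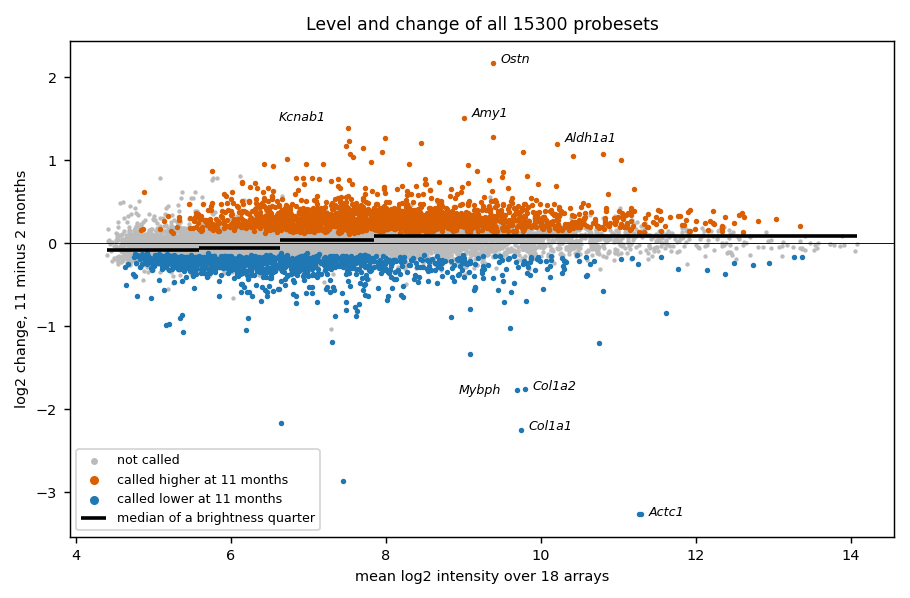
Change from 2 to 11 months (vertical axis, log2) against the mean level over 18 arrays (horizontal axis, log2 intensity) for 15300 probesets, with called probesets in colour. Among probesets of a named gene the largest falls were Actc1, Col1a1, Mybph and Col1a2, and black bars show the median change by brightness, from -0.079 in the dimmest 25% to 0.094 in the brightest 25%.

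Few further calls were made after 11 months. Between 11 and 25 months 9 probesets rose and 14 fell, 0.150% of those tested. A test of the difference between both steps, the change from 2 to 11 months less the change from 11 to 25 months, called 287 probesets (1.88%). Both steps use the 11 months arrays, and they span 9 and 14 months. The count was 34 under the covariate for signal range. Leaving out single arrays gave 60 to 582, the lowest without 11 months replicate 5 and the highest without 2 months replicate 1. For the 25 largest rises to 11 months, the change over the later step ran from -0.88 to 0.59 (median -0.075). For the 25 largest falls it ran from -0.77 to 0.69 (median -0.19). These genes were picked on the same 11 months arrays, so their later values are a description. The glycogen-binding protein Stbd1 and Kcnab1, a subunit of potassium channels, were called in the later step: Stbd1 was at 7.75, 6.87 and 7.41 at the 3 ages and Kcnab1 at 6.39, 7.78 and 8.37. Nrep, a protein of nerve and regenerating tissue, was called too and stood at 9.82, 9.03 and 8.39.

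**Figure D2:**
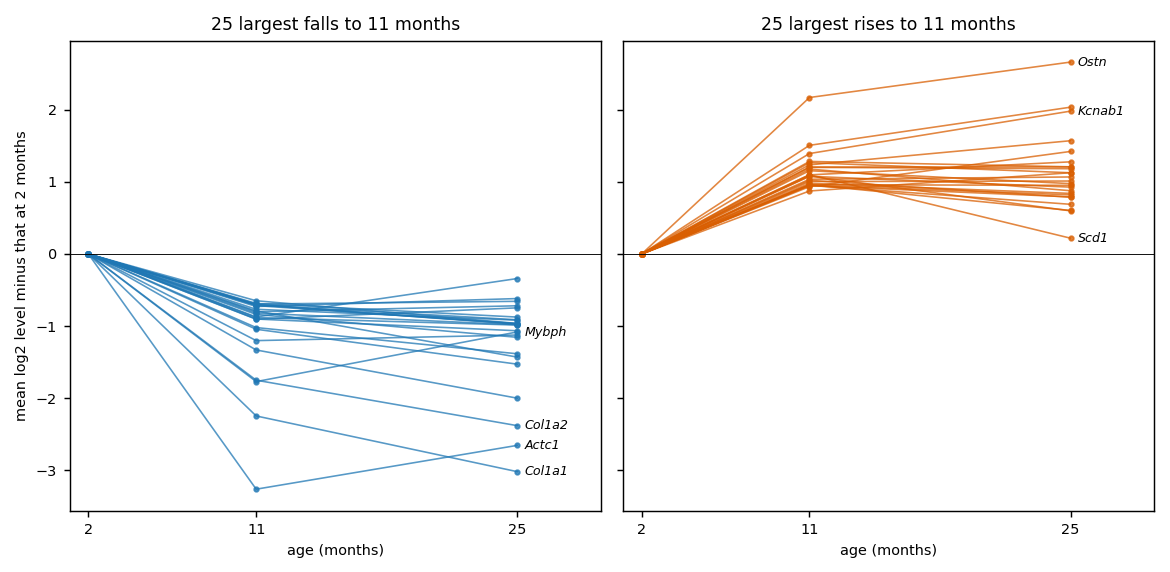
Mean level at 3 ages (horizontal axis, months) less the level at 2 months (vertical axis, log2) for the 25 genes that fell most to 11 months (left) and the 25 that rose most (right). After 11 months the means of Col1a1 and Col1a2 are lower still (changes -0.77 and -0.63) and those of Actc1, Mybph and Ostn higher (0.61, 0.69 and 0.49), while that of Scd1 is lower (-0.88); none of these later differences was called.

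Collagen transcripts fell nearly throughout. Of 15 measured fibril and other matrix collagens 14 fell and 0 rose, against 7.06% of all genes lower, with a median change of -0.60 against -0.015 over all genes. In 12 of the 15 every adult array lay below every young array. Fewer cells of a type and less RNA per cell cannot be told apart in whole muscle. Type I collagen, the main fibre of tendon and of the sheaths around muscle bundles, led the group. The level of its chain Col1a1 was 10.78 to 12.19 (median 11.47) in the young arrays and 8.94 to 9.79 (median 9.20) in the adult arrays, a 4.74-fold fall (log2 change -2.24 ± 0.19, SE; adjusted p = 4.33e-07). The highest adult array lay below the lowest young array.

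The second type I chain, Col1a2, was 10.68 to 11.68 (median 11.17) in young and 9.19 to 9.69 (median 9.40) in adult arrays, 3.36-fold lower (log2 change -1.75 ± 0.16, SE; adjusted p = 7.93e-07), again with no overlap. Type III collagen, the finer fibril of young and healing connective tissue, behaved likewise: Col3a1 was 9.61 to 10.82 (median 10.09) at 2 months and 8.67 to 9.18 (median 8.83) at 11 months (log2 change -1.33 ± 0.17, SE; adjusted p = 2.62e-05). Minor fibril collagens fell by less. Col5a2, which limits fibril width, changed by -0.72 ± 0.091 (SE), and Col11a1, a fibril former of cartilage and tendon, by -0.59 ± 0.068. Collagen VI, a beaded filament beside the fibre surface, fell in all 3 measured chains, from -0.64 for Col6a3 to -0.53 for Col6a1; the Col6 chains lay outside the naming rule and were chosen as a complete set. Col8a1, a collagen of vessel walls, was the member not called (-0.19, adjusted p = 0.108). With the signal range as a covariate 14 members were lower as well. The later step brought 0 calls in this list, with a median of -0.25.

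Basement membrane genes, which make the thin sheets of collagen IV and laminin around each fibre and capillary, were called downward as well: 10 of 17 fell and 0 rose (median -0.22). The collagen IV chain Col4a1 was 8.48 to 9.07 (median 8.74) in young and 7.98 to 8.23 (median 8.11) in adult arrays, 1.57-fold lower (log2 change -0.65 ± 0.090, SE; adjusted p = 8.95e-05). Its partner Col4a2 changed by -0.46 ± 0.082 (SE). Lamc1, the gamma chain of most laminins, fell 1.33-fold (log2 change -0.41 ± 0.059, SE; adjusted p = 1.33e-04), and Hspg2, the core of the proteoglycan perlecan, changed by -0.36 ± 0.069. Arrays did not overlap for Col4a1, Col4a2 and Lamc1. With the signal range as a covariate 6 members were lower.

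Genes that fold, cut and cross-link collagen had 10 of 27 members lower and 2 higher. Sparc, a collagen-binding matrix protein, was 10.10 to 10.78 (median 10.36) at 2 months and 9.20 to 9.53 (median 9.40) at 11 months, 2.03-fold lower with no overlap (log2 change -1.02 ± 0.10, SE; adjusted p = 2.59e-06). Bmp1, the protease that trims the procollagen tail, changed by -0.49 ± 0.057 (SE; adjusted p = 1.58e-05). Loxl2, which oxidises lysines to cross-link fibrils, changed by -0.60 ± 0.082 and P3h3, a collagen prolyl hydroxylase, by -0.25 ± 0.043. In the other direction P4hb, a disulfide isomerase that also serves prolyl hydroxylation, rose by 0.32. Not called were the lysyl hydroxylase Plod2 (-0.10, adjusted p = 0.256) and the cross-linking enzyme Loxl1 (-0.061, adjusted p = 0.42). With the array signal range as a covariate, limma did not call P4hb (adjusted p = 0.0688).

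Small proteoglycans and matricellular proteins were mixed, with 10 of 34 lower and 3 higher. Kera, the keratocan of tendon and cornea, fell 2.06-fold, with levels of 6.25 to 7.52 (median 7.11) in young and 5.66 to 6.27 (median 6.02) in adult arrays (log2 change -1.04 ± 0.15, SE; adjusted p = 1.56e-04), and its age ranges overlapped. Mfap4, a protein of elastic fibres, changed by -0.70 ± 0.088 (SE), the adhesion modulator Tnc by -0.43 ± 0.072 and periostin, Postn, a protein of growing collagen tissue, by -0.62 ± 0.11. The calls in the other direction were Dcn, the small proteoglycan decorin that coats collagen fibrils (0.38 ± 0.087), osteoglycin Ogn (0.50 ± 0.13) and Ccn1, a secreted adhesion protein of the CCN family (0.56 ± 0.14). Matrix proteases and their inhibitors had 8 of 22 lower and 2 higher. Adamts20, a secreted metalloprotease, was 6.34 to 7.43 (median 6.66) at 2 months and 5.70 to 6.00 (median 5.88) at 11 months (log2 change -0.90 ± 0.13, SE; adjusted p = 1.25e-04), Adamts12 changed by -0.63 ± 0.068, and the inhibitor Timp1 by -0.33 ± 0.073, while the inhibitor Timp3 rose (0.47 ± 0.081). Leaving out one of 11 months replicates 3, 5 and 6 or 2 months replicate 6 gave 5 lower proteases in place of 8, and the covariate for signal range or the fit without the 3 narrowest arrays gave 3. For the proteoglycan and matricellular list the covariate gave 1 rise and 10 falls. Taking the array signal range as a covariate ended the calls of Dcn (adjusted p = 0.119) and Ogn (adjusted p = 0.311).

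Markers of tendon cells moved with the matrix genes. Of 8 tenocyte markers 6 fell and 0 rose, and 4 of the 8 (Col11a1, Kera, Thbs4 and Comp) stand in the matrix lists too. Tnmd, the tendon membrane protein tenomodulin, changed by -0.63 ± 0.12 (SE; adjusted p = 0.00113) and Cpxm2, a carboxypeptidase-like protein, by -0.48 ± 0.092. The tendon transcription factor Scx was not called (-0.27, adjusted p = 0.146). Summed intensity of the 8 markers was 1983 to 2818 (median 2395) units in the young arrays and 1442 to 1953 (median 1711) in the adult arrays, so no adult array passed the lowest young array. Cartilage and bone markers had 2 of 10 lower, or 4 without 11 months replicate 4, one of them the cartilage collagen Col2a1 (-0.41 ± 0.072, adjusted p = 7.47e-04), and Sox9, the cartilage regulator, was not called (-0.19, adjusted p = 0.0794). Among 11 markers of fibro-adipogenic progenitors, the fibroblast-like cells of muscle, 1 rose and 1 fell, and their defining receptor Pdgfra changed by 0.0089 (adjusted p = 0.945). Their summed intensity was 3894 to 5212 (median 4630.3) and 4594 to 5234 (median 4943). The part of tendon or fibroblast number in the collagen falls was not tested.

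**Figure D3:**
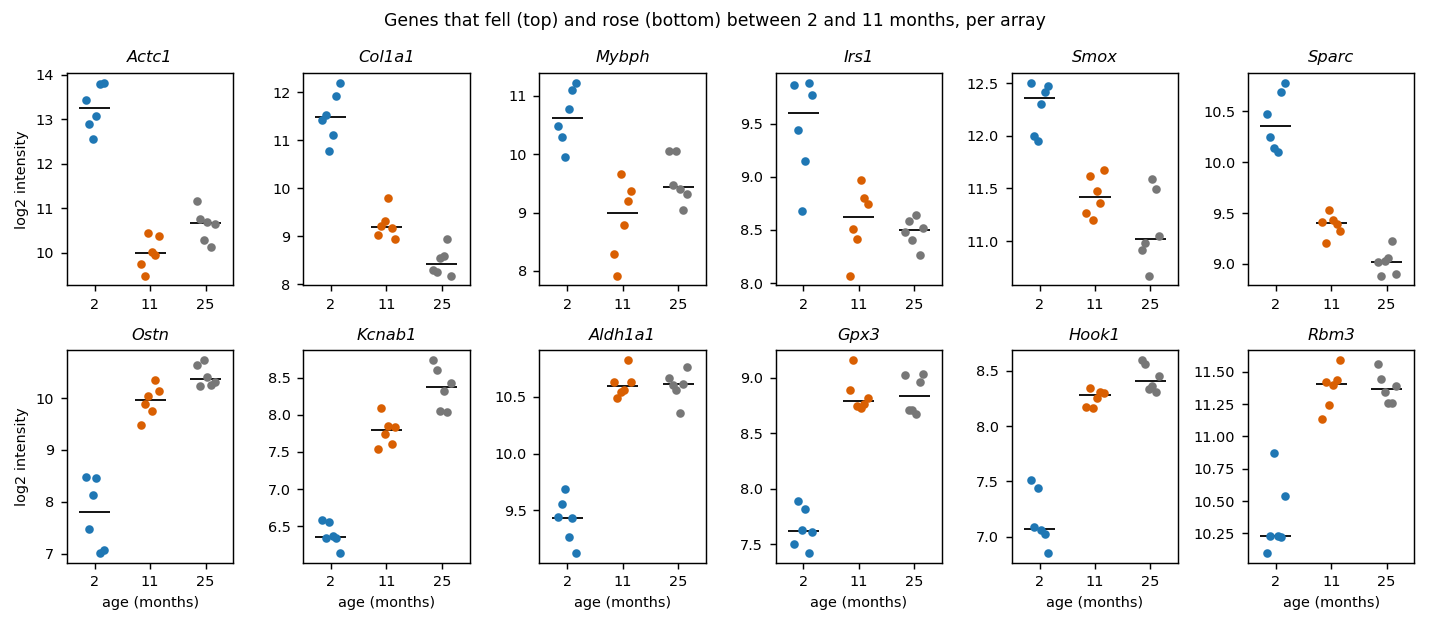
Log2 intensity of each array (points) and the median (line) at 2, 11 and 25 months (6 arrays an age) for 6 genes that fell and 6 that rose between 2 and 11 months. In 11 of the 12 genes the ranges at 2 and 11 months do not overlap, and in Irs1 they do.

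Promoter sequences are shown for 5 of the genes with large changes, to let the letters be read beside the values: Actc1 and Mybph as developmental muscle genes, Col1a2 and Col3a1 as collagens, and Mgst1, a microsomal glutathione transferase, as an antioxidant gene that rose. Each is the 250 bases before the gene's start from RefSeq (mouse build GRCm38.p6), 5′ to 3′ on the gene's strand, and capitals mark a motif match on either strand. The CArG box (the serum response factor site; 1 match in Actc1, from -47 to -38), the E-box CANNTG (bound by myogenic regulators among others; 1 match in Mybph, 4 in Col3a1), the CCAAT box (1 in Actc1, as ATTGG on the reverse strand, and 1 in Col1a2) and the antioxidant response core TGACNNNGC (1 in Mgst1, on the reverse strand) were searched, and no matches overlapped.
Actc1, chr2:114052876-114053125, minus strand: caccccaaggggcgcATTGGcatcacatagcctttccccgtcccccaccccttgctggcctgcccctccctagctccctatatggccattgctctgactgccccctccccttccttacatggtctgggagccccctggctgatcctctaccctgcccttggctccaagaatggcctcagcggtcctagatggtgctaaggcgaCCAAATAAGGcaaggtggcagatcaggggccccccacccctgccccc
Mybph, chr1:134193198-134193447, plus strand: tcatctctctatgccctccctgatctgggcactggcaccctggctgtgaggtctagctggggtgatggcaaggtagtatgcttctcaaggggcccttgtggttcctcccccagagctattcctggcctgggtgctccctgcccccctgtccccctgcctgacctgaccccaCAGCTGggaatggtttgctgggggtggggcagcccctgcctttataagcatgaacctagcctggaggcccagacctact
Col1a2, chr6:4505368-4505617, plus strand: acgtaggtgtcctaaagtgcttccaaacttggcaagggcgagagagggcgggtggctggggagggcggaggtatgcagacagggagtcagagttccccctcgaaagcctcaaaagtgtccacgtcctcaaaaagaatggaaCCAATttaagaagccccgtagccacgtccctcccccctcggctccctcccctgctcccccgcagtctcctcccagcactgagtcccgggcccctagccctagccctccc
Col3a1, chr1:45311288-45311537, plus strand: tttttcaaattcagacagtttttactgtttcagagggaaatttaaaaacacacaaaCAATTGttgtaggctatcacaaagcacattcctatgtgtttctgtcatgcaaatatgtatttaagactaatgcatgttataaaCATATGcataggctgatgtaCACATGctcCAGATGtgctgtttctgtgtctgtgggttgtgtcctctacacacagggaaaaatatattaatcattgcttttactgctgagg
Mgst1, chr6:138140277-138140526, plus strand: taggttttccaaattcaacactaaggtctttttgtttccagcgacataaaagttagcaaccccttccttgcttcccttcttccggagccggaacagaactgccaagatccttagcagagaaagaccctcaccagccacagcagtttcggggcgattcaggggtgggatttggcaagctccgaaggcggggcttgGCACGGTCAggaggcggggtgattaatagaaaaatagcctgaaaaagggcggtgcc
Matches to the E-box and the CCAAT box are common, and those to the CArG box are rare. Among 10596 measured genes with a RefSeq promoter, 59.5% held an E-box and 35.8% a CCAAT box. An antioxidant response core was in 11.7% and a CArG box in 1.21%. Among the 1294 that rose these shares were 56.8%, 38.2%, 12.4% and 1.08%, and among the 728 that fell 61.3%, 33.5%, 13.0% and 1.79%. A match is a description of letters and not a site.

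Growth signals fell in part. Of 20 genes of the growth hormone and insulin-like growth factor pathway 4 fell and 2 rose. Igf1, the local growth factor that drives fibre growth, was 6.31 to 7.04 (median 6.64) at 2 months and 5.96 to 6.24 (median 6.12) at 11 months, 1.5-fold lower with no overlap (log2 change -0.58 ± 0.10, SE; adjusted p = 4.39e-04). Irs1, the docking protein that passes on the signal of the insulin and IGF receptors, was 8.67 to 9.89 (median 9.61) in young and 8.07 to 8.97 (median 8.63) in adult arrays (log2 change -0.88 ± 0.17, SE; adjusted p = 0.00198), and the ranges overlapped. Jak2, the kinase of the growth hormone receptor, changed by -0.37 ± 0.078 (SE), and the receptor Ghr itself rose (0.27 ± 0.071). The receptor Igf1r was not called (-0.13, adjusted p = 0.128). The feedback inhibitor Cish, a target of growth hormone through STAT5, had a change of -1.03 and was not called (adjusted p = 0.0794), with a wide range at both ages, 6.81 to 8.82 (median 8.40) and 6.23 to 8.03 (median 6.96). Without 2 months replicate 3 the count of falls was 7. The call of Ghr (adjusted p = 0.225) ended when the array signal range entered the model as a covariate.

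Genes of the imprinted growth network, many of them expressed from a single parental copy and switched down after birth, had 5 of 15 lower and 2 higher. H19, a noncoding RNA beside Igf2, fell 2.30-fold, with levels of 11.04 to 12.23 (median 11.36) in young and 9.97 to 10.85 (median 10.26) in adult arrays (log2 change -1.2 ± 0.19, SE; adjusted p = 3.09e-04). Peg3, a zinc finger protein expressed from the paternal copy, was 6.64 to 6.97 (median 6.86) and 6.00 to 6.25 (median 6.16) at the same ages (log2 change -0.69 ± 0.072, SE; adjusted p = 4.60e-06). Plagl1, a zinc finger regulator of this network, changed by -0.36 ± 0.053 (SE) and the fetal growth factor Igf2 by -0.34 ± 0.081. Arrays of H19, Peg3 and Plagl1 did not overlap between ages. The 2 rises were Nnat (0.68 ± 0.15), a small membrane protein, and Sgce (0.35 ± 0.080), a sarcoglycan. Once the array signal range was a covariate, Igf2 (adjusted p = 0.122) and Sgce (adjusted p = 0.124) did not pass.

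Secreted growth inhibitors and Wnt modulators went both ways. Of 35 myostatin, TGF-beta and BMP genes 5 rose and 3 fell, near the background in each direction; the ligand Tgfb2 rose (0.29 ± 0.058, SE), the signal transducer Smad2 rose (0.28 ± 0.072) and Fstl1, a secreted glycoprotein of connective tissue, fell (-0.43 ± 0.090). The 5 rises were 3 without 11 months replicate 5 or 6 or 2 months replicate 4, and quantile normalization gave 2 higher and 5 lower. The covariate, and likewise the fit without the 3 narrowest arrays, gave 1 and 1. Wnt genes had 4 of 24 higher and 4 lower, or 1 and 4 under the covariate. Dkk3, a secreted protein of the dickkopf family, was 5.98 to 6.62 (median 6.44) at 2 months and 7.14 to 7.77 (median 7.28) at 11 months, 1.94-fold higher with no overlap (log2 change 0.96 ± 0.11, SE; adjusted p = 1.10e-05). Wnt4, a ligand, rose by 0.35. Wif1, an inhibitor that binds Wnt ligands, changed by -0.54 ± 0.10, the coreceptor Lrp6 by -0.26 ± 0.049 and Frzb, a decoy receptor, by -0.41 ± 0.11. The target gene Axin2 was not called (-0.042, adjusted p = 0.629). With the array signal range as a covariate, limma did not call Smad2 (adjusted p = 0.256) or Wnt4 (adjusted p = 0.0685).

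Among developmental contractile and fusion genes 2 of 8 fell and 1 rose. Actc1, the actin of heart and of developing skeletal muscle, had the largest fall of any named gene: its level was 12.56 to 13.81 (median 13.25) at 2 months and 9.48 to 10.43 (median 9.98) at 11 months, 9.58-fold lower (log2 change -3.26 ± 0.21, SE; adjusted p = 7.30e-09). The ages did not overlap, and every adult array lay far below the young ones. Actin genes are close in sequence, and how far probes cross-react was not tested. Skeletal actin Acta1 changed by -0.094 (adjusted p = 0.0912 in limma). Its levels were 13.93 to 14.16 over both ages, near the top of the scale, where the highest mean of any probeset was 14.07. Whether changes are compressed there was not tested. Mybph, a myosin-binding protein of developing and loaded muscle, was 9.95 to 11.22 (median 10.63) and 7.92 to 9.66 (median 8.99), 3.41-fold lower (log2 change -1.77 ± 0.27, SE; adjusted p = 1.96e-04), without overlap. Mymk, the fusion protein myomaker, and the cell adhesion molecule Ncam1 were not called (changes -0.16 and -0.11). Hacd1, an enzyme of very long chain fatty acid synthesis needed in myoblasts, fell 1.77-fold (log2 change -0.82 ± 0.086, SE; adjusted p = 5.07e-06).

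Regulators of muscle differentiation gave few calls. Of 23 myogenic and Notch genes 3 rose and 2 fell, and the rises were 1 under the covariate for signal range, after quantile normalization, without the 3 narrowest arrays and without 11 months replicate 5 or 2 months replicate 6. Myog, the regulator of myoblast differentiation, was 6.47 to 6.99 (median 6.69) in young arrays and 5.81 to 6.41 (median 6.18) in adult arrays, 1.5-fold lower without overlap (log2 change -0.58 ± 0.10, SE; adjusted p = 4.39e-04). Mef2a, a partner of the myogenic regulators, rose (0.29 ± 0.056, SE). Myod1 (0.050, adjusted p = 0.785) and Myf6 (0.012, adjusted p = 0.927) were not called. Satellite cells, the stem cells of muscle, had 4 of 13 markers lower and 1 higher: their defining factor Pax7 changed by -0.31 ± 0.074 and Chodl, a membrane lectin, by -0.35 ± 0.087, while the laminin receptor Itga7, which fibres also express, rose (0.26 ± 0.063). Summed intensity of these markers was 1677 to 1833 (median 1736) and 1649 to 1959 (median 1759.7), so the ranges overlapped. Cell cycle and replication genes gave 4 of 33 higher and 3 lower, and their mean level at 2 months was 5.84. Ccne2, a cyclin of the entry to S phase, rose from 5.46 to 5.87, and the ribonucleotide reductase Rrm1 changed by 0.48 ± 0.11; the mitotic kinase Cdk1 was not called (-0.13, adjusted p = 0.0835). The 4 cell cycle rises were 1 under the covariate and 2 without the 3 narrowest arrays or without 2 months replicate 6. The 3 falls were 0 in each of the covariate, quantile and narrowest-array fits. Leaving out single arrays gave 0 falls (number 5 at 11 months, number 4 at 2 months) or 1 (number 6 at 11 months, number 2 at 2 months). The 4 satellite cell falls were 2 under the covariate. Taking the array signal range as a covariate ended the calls of Pax7 (adjusted p = 0.163), Itga7 (adjusted p = 0.15) and Rrm1 (adjusted p = 0.119).

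The adult contractile genes gave few calls, and the fast fibre genes, with a mean level of 13.37 at 2 months, lay near the top of the scale. Fast fibre genes had 3 of 15 lower and 0 higher (1 and 1 after quantile normalization, and 1 fall without 2 months replicate 6 or with only the 12 arrays in the fit), and the largest called change was that of the regulatory light chain Mylpf, at 12.95 to 13.21 (median 13.07) in young and 12.74 to 12.92 (median 12.86) in adult arrays (log2 change -0.24 ± 0.050, SE; adjusted p = 0.00295). Slow fibre genes had 0 of 9 called in limma and 1 at an unadjusted p under 0.05, the slow troponin Tnni1, with a median of 0.23. Tnni1 had a change of 0.56 (adjusted p = 0.0684). Of 6 muscle fibre markers 1 fell and 2 rose, desmin Des, the filament that links fibrils (0.32 ± 0.043, SE), and the oxygen store myoglobin Mb (0.29 ± 0.072).

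The membrane systems that carry the signal to contract had calls in both directions. Of 27 triad and calcium genes 6 fell and 3 rose. The falls were 3 without the 3 narrowest arrays, 4 under the covariate and 8 after quantile normalization, and the rises were 5 without 2 months replicate 1 or 3. Sypl2, the triad protein mitsugumin-29, was 10.76 to 11.44 (median 11.20) at 2 months and 10.41 to 10.71 (median 10.61) at 11 months (log2 change -0.57 ± 0.084, SE; adjusted p = 1.42e-04), and Cav3, the caveolin of muscle membranes, changed by -0.39 ± 0.055 (SE). Jph2, a junctophilin that ties the triad membranes together, changed by -0.30 ± 0.059. On the rising side were Cacng1, a subunit of the voltage sensor (0.66 ± 0.10), the voltage sensor Cacna1s itself (0.25 ± 0.052) and the calcium-dependent kinase Camk2b (0.51 ± 0.076). The release channel Ryr1 was not called (-0.12, adjusted p = 0.186). Young and adult arrays did not overlap for Sypl2, Cav3, Cacng1, Cacna1s and Camk2b.

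Membrane excitability genes had 5 of 22 higher and 3 lower. Kcnab1, a beta subunit that modulates potassium channels, was 6.14 to 6.58 (median 6.36) in young and 7.54 to 8.10 (median 7.79) in adult arrays, 2.62-fold higher (log2 change 1.39 ± 0.12, SE; adjusted p = 2.30e-07), with a clear gap between the ages. The inward rectifier Kcnj2, which sets the resting potential, rose 1.57-fold (log2 change 0.65 ± 0.13, SE; adjusted p = 0.00158), and the chloride channel Clcn1, which damps repeated firing, changed by 0.31 ± 0.058 (SE). Atp1b2, a sodium pump subunit, fell (-0.38 ± 0.084). The 5 rises were 3 and the 3 falls 1 under the covariate and without the 3 narrowest arrays. Leaving out 11 months replicate 6 or 2 months replicate 4 also gave 3 rises, and leaving out 11 months replicate 5 gave 1 fall. At the nerve contact 2 of 21 junction genes rose and 3 fell, or 1 and 1 under the covariate and without the 3 narrowest arrays; Musk, the kinase that gathers acetylcholine receptors, rose (0.47 ± 0.10), the transcription factor Etv4 fell (-0.36 ± 0.063), and the receptor subunit Chrna1 was not called (0.073, adjusted p = 0.541).

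Protein breakdown genes rose in larger numbers. Of 22 ubiquitin ligase and FoxO genes 8 rose and 2 fell, against 12% and 7.06% of all genes. The list was bright, with a mean level of 8.59 at 2 months. In the brightest 25% of probesets 994 of 3825 rose, and the part of brightness in these rises was not tested. The covariate for signal range gave 4 and 0, and quantile normalization 7 and 3. Fbxo32, the muscle ligase atrogin-1, was 9.53 to 10.64 (median 10.18) at 2 months and 10.97 to 11.34 (median 11.26) at 11 months, 2.11-fold higher (log2 change 1.08 ± 0.15, SE; adjusted p = 7.72e-05). Klhl38, a muscle protein of the kelch family, was 8.13 to 9.13 (median 8.52) in young and 9.75 to 9.91 (median 9.81) in adult arrays (log2 change 1.28 ± 0.13, SE; adjusted p = 2.81e-06). Asb15, a SOCS-box protein of muscle, changed by 0.86 ± 0.10 (SE) and Fbxo21, another F-box protein, by 0.41 ± 0.046. In all of these the arrays of both ages were apart. Ddit4, an inhibitor of mTOR signalling, fell (-0.52 ± 0.12), and the transcription factors Foxo1 (-0.18, adjusted p = 0.0641) and Foxo3 (0.003, adjusted p = 0.972) were not called. Otub2, a deubiquitinating enzyme outside the list, rose 2.11-fold on average (log2 change 1.08 ± 0.21, SE; adjusted p = 0.00155), unevenly over the arrays. Its replicates 1 to 6 were at 7.51, 7.10, 7.48, 6.88, 6.54 and 6.37 at 2 months. At 11 months they were at 7.51, 7.87, 7.58, 8.52, 8.38 and 8.49. The call of Ddit4 (adjusted p = 0.096) ended when the array signal range entered the model as a covariate.

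Autophagy and lysosome genes gave 15 of 29 higher and 0 lower, with a median of 0.18. Atg13, of the kinase complex that starts an autophagosome, rose 1.32-fold (log2 change 0.40 ± 0.052, SE; adjusted p = 4.70e-05). The cargo receptor Sqstm1 changed by 0.32 ± 0.057 (SE), the lysosomal protease Ctsd by 0.28 ± 0.052 and the mitophagy receptor Bnip3l by 0.32 ± 0.061, and for each of these genes the ages did not overlap. Of the initiating kinases Ulk1 was not called (-0.025, adjusted p = 0.817). Proteasome genes gave 11 of 28 higher and 0 lower (median 0.16), with Psmd4, a ubiquitin receptor of the regulatory cap, at 0.34 ± 0.065 and the cap subunits Psmd11 at 0.28 ± 0.057 and Psmd2 at 0.34 ± 0.077. Both lists were bright, with mean levels of 8.98 and 9.38 at 2 months, and the brightest 25% of all probesets had a median change of 0.094. By quantile normalization the counts were 10 and 7, under the covariate for signal range 6 and 1, without the 3 narrowest arrays 9 and 4, and the proteasome count was also 7 without 2 months replicate 4. Once the array signal range was a covariate, Psmd11 (adjusted p = 0.0509) and Psmd2 (adjusted p = 0.124) did not pass.

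**Figure D4:**
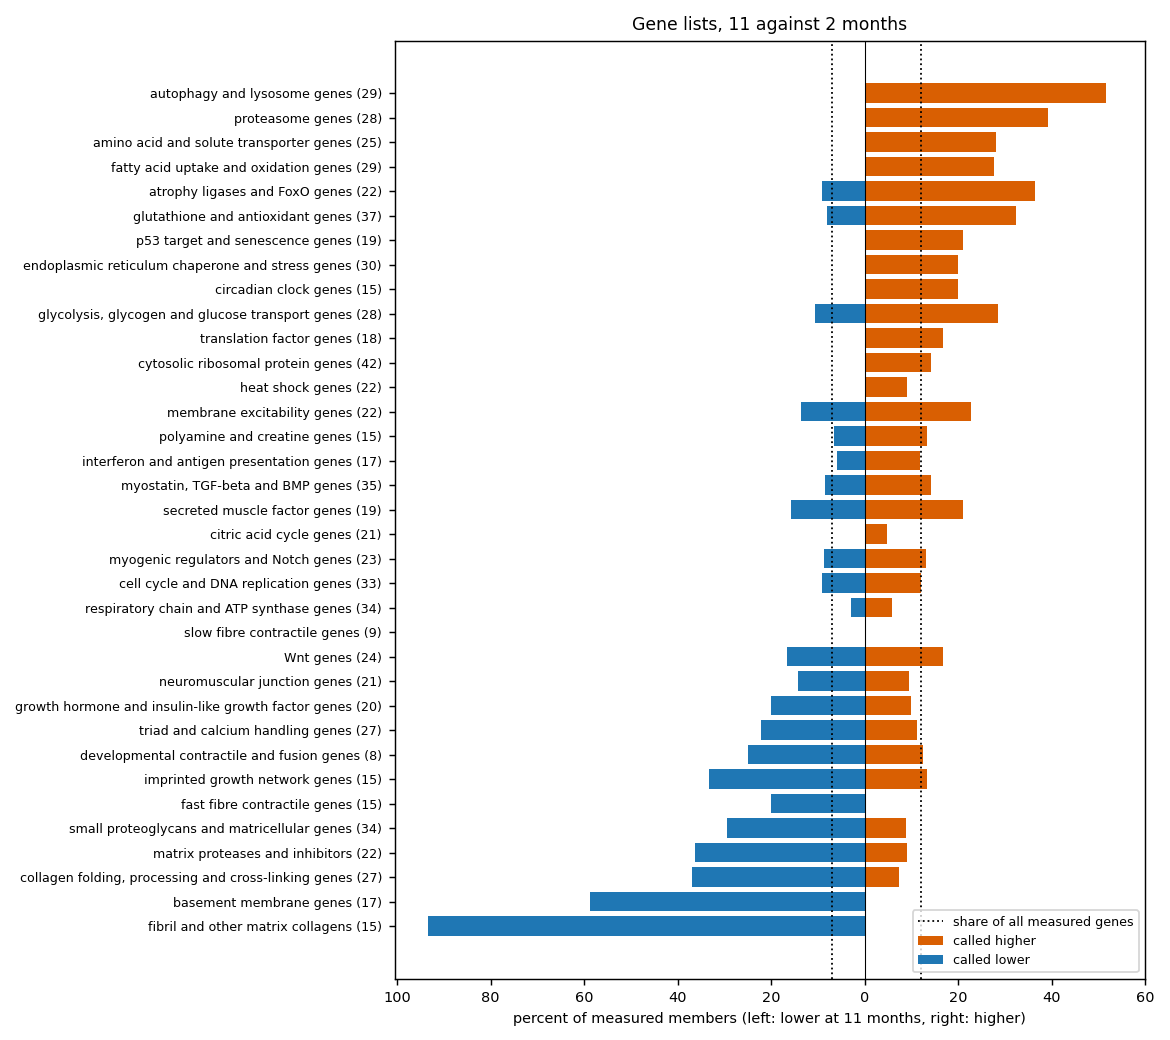
Share of the measured members of each gene list (number of members in brackets) called higher (right, orange) or lower (left, blue) at 11 than at 2 months, in percent. Dotted lines mark the share of all 13255 genes, 12% higher and 7.06% lower; collagen and basement membrane genes reach farthest to the left and autophagy and proteasome genes farthest to the right.

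Glutathione and antioxidant genes had 12 of 37 higher and 3 lower. Their mean level was 8.24 at 2 months, and in the brightest 25% of probesets 994 of 3825 rose. Gpx3, the secreted glutathione peroxidase, was 7.42 to 7.89 (median 7.62) at 2 months and 8.73 to 9.16 (median 8.79) at 11 months, 2.31-fold higher (log2 change 1.21 ± 0.091, SE; adjusted p = 6.38e-08). Nqo1, a quinone reductase, was 6.32 to 7.60 (median 6.84) in young and 7.77 to 8.08 (median 7.91) in adult arrays (log2 change 1.04 ± 0.17, SE; adjusted p = 3.71e-04), and Mgst1 was 7.42 to 8.20 (median 7.74) in young and 8.44 to 8.92 (median 8.71) in adult arrays (log2 change 0.95 ± 0.13, SE; adjusted p = 4.91e-05). None of these ranges overlapped. Gsta4, a transferase that clears lipid aldehydes, changed by 0.64 ± 0.071 (SE); transferases have close paralogs, and sharing of probes between them was not tested. Keap1, the repressor of the antioxidant factor, fell (-0.18 ± 0.043), and that factor, Nfe2l2, was not called (0.15, adjusted p = 0.0653). Superoxide dismutases were not called, with changes of 0.10 for Sod1 and -0.014 for Sod2. Among enzymes of other oxidations Aldh1a1, which makes retinoic acid and clears aldehydes, was 9.12 to 9.68 (median 9.44) and 10.50 to 10.83 (median 10.60), 2.30-fold higher (log2 change 1.2 ± 0.084, SE; adjusted p = 1.66e-08), and Maob, a mitochondrial monoamine oxidase, rose 1.97-fold (log2 change 0.98 ± 0.10, SE; adjusted p = 2.57e-06). Every adult array exceeded every young array for both. With the signal range as a covariate 7 members of the list were higher and 1 lower, and the 3 falls were also 1 without the 3 narrowest arrays or without 2 months replicate 6.

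Genes of glucose uptake, glycogen storage and glycolysis were called in both directions. Of 28 glycolysis, glycogen and glucose transport genes 8 rose and 3 fell. This list was bright, with a mean level of 10.6 at 2 months, and its share of rises was near that of the brightest 25% of probesets (994 of 3825). The covariate for signal range gave 4 in each direction, and the fit without the 3 narrowest arrays 5 rises and 3 falls. Slc2a3, a high affinity glucose transporter, was 6.65 to 7.34 (median 6.99) in young and 7.82 to 8.47 (median 8.18) in adult arrays, 2.23-fold higher (log2 change 1.15 ± 0.11, SE; adjusted p = 2.51e-06), and Slc2a1, the widespread glucose transporter, changed by 0.36 ± 0.079 (SE). Gys1, muscle glycogen synthase, rose 1.31-fold (log2 change 0.39 ± 0.044, SE; adjusted p = 9.51e-06). Stbd1 was 7.43 to 7.98 (median 7.77) in young and 6.57 to 7.16 (median 6.88) in adult arrays, a fall (log2 change -0.87 ± 0.10, SE; adjusted p = 9.51e-06). Along glycolysis the phosphofructokinase Pfkm rose (0.20 ± 0.044) and the mutase Pgam2 fell (-0.32 ± 0.048). The insulin-responsive transporter Slc2a4 (0.13, adjusted p = 0.119) and the glycogen phosphorylase Pygm (0.084, adjusted p = 0.107) were not called. Slc2a3, Gys1, Stbd1, Pfkm and Pgam2 had no overlap between ages.

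Fat oxidation genes gave 8 of 29 higher and 0 lower. Their mean level was 9.35 at 2 months, and their share of rises was near that of the brightest 25% of probesets (994 of 3825). Acot2, a mitochondrial thioesterase, was 8.39 to 8.74 (median 8.69) at 2 months and 9.08 to 9.48 (median 9.20) at 11 months (log2 change 0.62 ± 0.086, SE; adjusted p = 8.72e-05), and Slc27a1, a fatty acid transport protein, changed by 0.52 ± 0.073 (SE). Acadm, the medium chain dehydrogenase, rose by 0.32, and Hadhb, a subunit of the trifunctional protein, by 0.42. The coactivator Ppargc1a was not called (0.075, adjusted p = 0.515). With the signal range as a covariate 3 of these rises were counted. In the mitochondrial core, respiratory chain genes had 2 of 34 higher and 1 lower, below the background in both directions, and after quantile normalization 0 and 5, with 3 falls without 11 months replicate 1; the complex I subunit Ndufb10 was the fall (-0.32 ± 0.071). Citric acid cycle genes had 1 of 21 higher, Suclg2, a subunit of the enzyme that makes succinate (0.33 ± 0.070), and citrate synthase Cs was not called (-0.028, adjusted p = 0.633). With the array signal range as a covariate, limma did not call Hadhb (adjusted p = 0.0573) or Suclg2 (adjusted p = 0.0818).

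Of 42 cytosolic ribosomal protein genes 6 rose and 0 fell, which became 3 and 3 by quantile normalization and 1 and 0 under the covariate; 3 fell without 2 months replicate 5, and pseudogenes make probes of such genes uncertain. Rpl22, of the large subunit, changed by 0.43 ± 0.10 (SE). Translation factors gave 3 of 18 higher and 0 lower, and the rises were 6 without 2 months replicate 1 and 7 without 2 months replicate 3. The initiation factor Eif3c changed by 0.47 ± 0.071 (adjusted p = 1.64e-04) and the elongation factor Eef2 by 0.23 ± 0.041. Endoplasmic reticulum chaperone and stress genes had 6 of 30 higher and 0 lower, with Dnajb9, a chaperone of the lumen, at 0.52 ± 0.11. Quantile normalization gave 3 higher and 2 lower, and the covariate for signal range 0 of either, while 2 rose without the 3 narrowest arrays. Leaving out one of 11 months replicates 3, 5 and 6 or of 2 months replicates 4 and 6 gave 2 or 3. Heat shock genes had 2 of 22 higher and 0 lower, 1 and 3 after quantile normalization, and the small heat shock protein Hspb8 changed by 0.40 ± 0.10. Taking the array signal range as a covariate ended the calls of Rpl22 (adjusted p = 0.125), Dnajb9 (adjusted p = 0.114) and Hspb8 (adjusted p = 0.0875).

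Stress and rhythm genes had a few rises and 0 falls, in 2 small lists, against 12% higher and 7.06% lower of all genes. Of 19 p53 target and senescence genes 4 rose, or 2 under the covariate for signal range. Eda2r, a receptor of the tumour necrosis factor family and p53 target, was 5.96 to 7.39 (median 6.52) at 2 months and 7.47 to 8.16 (median 7.82) at 11 months, 2.35-fold higher with no overlap (log2 change 1.24 ± 0.20, SE; adjusted p = 3.29e-04). Phlda3, an inhibitor of Akt, changed by 0.39 ± 0.059 (SE), and the cell cycle inhibitor Cdkn2c by 0.53 ± 0.12. The senescence marker Cdkn2a was not called (-0.18, adjusted p = 0.0792), nor was Cdkn1a (0.20, adjusted p = 0.244). Of 15 clock genes 3 rose, or 1 under the covariate, and quantile normalization gave 2 rises and 1 fall. The repressor Cry2 changed by 0.58 ± 0.080 (adjusted p = 7.36e-05), the nuclear receptor Rora by 0.27 ± 0.055 and Bhlhe41, a repressor, by 0.28 ± 0.066. The core activator Arntl was not called (0.55, adjusted p = 0.167). The labels give no time of day. The calls of Cdkn2c (adjusted p = 0.0923), Rora (adjusted p = 0.0511) and Bhlhe41 (adjusted p = 0.0716) ended when the array signal range entered the model as a covariate. A further quantile normalization ended the call of Bhlhe41 (adjusted p = 0.0692).

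Among secreted muscle factors 4 of 19 rose and 3 fell, against 3 and 4 after quantile normalization and 1 and 0 under the covariate. The falls were 5 without 11 months replicate 3 and 1 without the 3 narrowest arrays. Ostn, the muscle peptide musclin, had the largest rise of any named gene: 7.01 to 8.47 (median 7.80) in the young arrays and 9.48 to 10.35 (median 9.96) in the adult arrays, 4.50-fold (log2 change 2.17 ± 0.22, SE; adjusted p = 3.92e-06). The lowest adult array lay well above the highest young array. Il15, a cytokine made by fibres, rose 1.55-fold (log2 change 0.64 ± 0.13, SE; adjusted p = 0.00326), again without overlap, and the precursor of irisin, Fndc5, was not called (-0.24, adjusted p = 0.0753). Transporters of amino acids and other solutes had 7 of 25 higher and 0 lower. The covariate gave 3 and 0, the fit without the 3 narrowest arrays 4 and 0, and quantile normalization 6 and 2. The list was led by Slc15a5, a member of the peptide transporter family, at 5.89 to 6.41 (median 6.08) in young and 6.99 to 7.37 (median 7.10) in adult arrays (log2 change 1.02 ± 0.11, SE; adjusted p = 9.51e-06). The taurine transporter Slc6a6 changed by 0.33 ± 0.054 (SE). Polyamine and creatine genes gave 2 of 15 higher and 1 lower, or 2 and 4 after quantile normalization and 1 and 3 under the covariate. Smox, spermine oxidase, was 11.95 to 12.50 (median 12.36) and 11.20 to 11.68 (median 11.42), 1.79-fold lower with no overlap (log2 change -0.84 ± 0.14, SE; adjusted p = 4.43e-04), while spermine synthase Sms rose (0.42 ± 0.11). Once the array signal range was a covariate, Il15 (adjusted p = 0.0626) and Sms (adjusted p = 0.274) did not pass.

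Other large rises belonged to no list. Rbm3, an RNA-binding protein induced by cold, was 10.10 to 10.87 (median 10.23) at 2 months and 11.13 to 11.59 (median 11.41) at 11 months, 2.01-fold higher (log2 change 1.0 ± 0.11, SE; adjusted p = 5.15e-06). Hook1, an adaptor of the microtubule motor dynein, was 6.85 to 7.51 (median 7.07) in young and 8.17 to 8.34 (median 8.28) in adult arrays (log2 change 1.10 ± 0.090, SE; adjusted p = 2.30e-07). The amylase Amy1, whose gene has near copies, was 7.47 to 8.52 (median 7.72) and 9.08 to 9.62 (median 9.27) (log2 change 1.51 ± 0.15, SE; adjusted p = 2.34e-06). Their adult arrays all lay above the young ones. Inmt, a methyltransferase of small amines, rose 2.40-fold, Ces1d, a lipid esterase with paralogs, 2.26-fold, and Tdrkh, a Tudor domain protein, 1.95-fold, with SE of 0.15, 0.12 and 0.12 on the log2 scale. Neto2, an auxiliary subunit of glutamate receptors, rose 1.95-fold (SE 0.14), Pla2g7, a secreted phospholipase, 1.93-fold (SE 0.14) and Plekhb1, a protein with a pleckstrin homology domain, 1.83-fold (SE 0.078). These 6 had no overlap either.

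Other large falls included Mettl21e, a muscle methyltransferase of lysines, at 5.49 to 6.48 (median 6.03) in young and 4.97 to 5.40 (median 5.06) in adult arrays (log2 change -0.90 ± 0.12, SE; adjusted p = 4.70e-05). Rftn1, a lipid raft protein, fell 1.70-fold (log2 change -0.77 ± 0.10, SE; adjusted p = 2.80e-05), and Gbp7, a guanylate-binding protein, 1.66-fold (log2 change -0.73 ± 0.10, SE; adjusted p = 8.95e-05). Aqp4, the water channel of fast fibres, was 8.12 to 8.80 (median 8.59) and 7.50 to 8.17 (median 7.83) (log2 change -0.69 ± 0.11, SE; adjusted p = 4.81e-04), with some overlap. Itm2a, a membrane protein of differentiating muscle and cartilage, changed by -0.70 ± 0.13 (SE), Tm6sf1, a lysosomal membrane protein, by -0.71 ± 0.10 and Slc25a25, a mitochondrial carrier of adenine nucleotides, by -0.80 ± 0.20. Of these genes Aqp4, Itm2a and Slc25a25 overlapped between ages. With the array signal range as a covariate, limma did not call Slc25a25 (adjusted p = 0.111).

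Adipocyte markers had 5 of 12 higher and 0 lower: the desaturase Scd1 was 8.59 to 10.09 (median 9.37) at 2 months and 9.76 to 10.90 (median 10.42) at 11 months (log2 change 1.10 ± 0.28, SE; adjusted p = 0.00943), and the fat hormone Lep 5.0 to 5.74 (median 5.33) and 5.40 to 7.51 (median 6.11) (log2 change 0.87 ± 0.24, SE; adjusted p = 0.0178), both with overlap. The defining fat droplet protein Plin1 was not called (0.24, adjusted p = 0.162). Their summed intensity was 10084 to 11331 (median 10521) and 9392 to 13162 (median 11994), with the highest adult value in replicate 3. Leaving out one of 11 months replicates 3, 4 and 5 or of 2 months replicates 1, 2, 4 and 5 gave 2 or 3 adipocyte calls in place of 5, and the covariate for signal range gave 1. Skin markers had 1 of 11 higher, Trp63, a transcription factor that muscle may also express (0.41 ± 0.12, SE), and their sum was 603 to 703 (median 653) and 631 to 2494 (median 724), raised in 11 months replicates 4 and 5; the keratins Krt5 and Krt14 were not called (adjusted p = 0.125 and 0.227). Taking the array signal range as a covariate ended the calls of Lep (adjusted p = 0.102) and Trp63 (adjusted p = 0.179).

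Blood vessel cells had 3 of 14 endothelial markers lower and 1 higher (6 and 0 after quantile normalization), with the junction protein Cdh5 at 0.044 (adjusted p = 0.642) and the phosphatase Ptprb at -0.21 ± 0.058 (SE). The 3 endothelial falls were 1 without the 3 narrowest arrays, with only the 12 arrays in the fit, or with a single array left out (number 4, 5 or 6 at 11 months, number 2 or 4 at 2 months). Smooth muscle and pericyte markers had 3 of 13 higher, among them Rgs5 (0.32 ± 0.063), a pericyte regulator of G proteins, and desmin, which fibres express; the smooth muscle myosin Myh11 was not called (-0.077, adjusted p = 0.415). Their summed intensity, desmin included, was 9928 to 10798 (median 10332) and 11561 to 12936 (median 12128). Desmin makes up much of this sum, with log2 levels of 12.31 to 12.46 in young and 12.64 to 12.78 in adult arrays. The mean level of the list was 8.46 at 2 months. A sum without desmin was not taken, so these ranges do not show that the other markers rose. Of the 13 changes 8 were above and 5 below 0, with a median of 0.030. Schwann cell and nerve markers had 1 of 9 lower, the myelin protein Pmp22 (-0.38 ± 0.089), which other cells also make. Without 11 months replicate 1 the count was 5, and 8 of the 9 changes were below 0. Their summed intensity was 1389 to 1654 (median 1526) and 1106 to 1559 (median 1253), so the ages overlapped. Of 13 macrophage markers 2 rose, of 10 T and NK cell markers 1 fell, of 9 B and plasma cell markers 1 rose, and of 10 neutrophil and mast cell markers 2 rose, among them the mast cell protease Cpa3 (0.36 ± 0.087), and 1 fell. The interferon and antigen list had 2 of 17 higher and 1 lower, with B2m, the light chain of class I molecules, at 9.32 to 9.78 (median 9.53) in young and 9.94 to 10.39 (median 10.03) in adult arrays (log2 change 0.53 ± 0.11, SE; adjusted p = 0.00212). Of 4 erythroid markers the transferrin receptor Tfrc fell (-0.54 ± 0.14), a gene that fibres also use for iron uptake, and 3 fell without 2 months replicate 1; the red cell enzyme Alas2 was not called (-0.091, adjusted p = 0.669). The calls of Pmp22 (adjusted p = 0.0733), Cpa3 (adjusted p = 0.0939) and B2m (adjusted p = 0.0569) ended when the array signal range entered the model as a covariate.

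**Figure D5:**
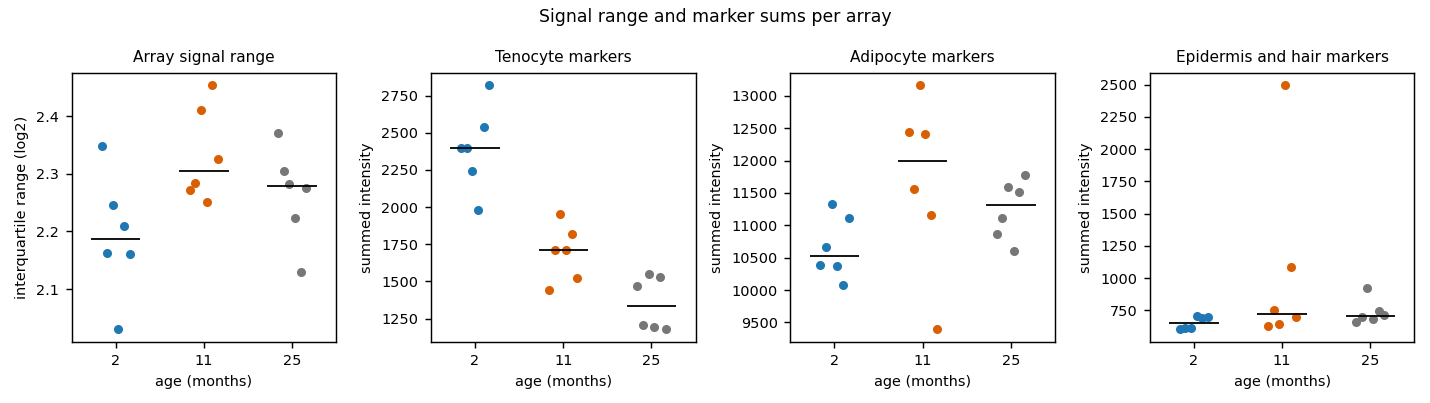
Per array (points) and median (line) at each age: the signal range of the array (interquartile range of log2 values, left) and the summed linear intensity of tenocyte, adipocyte and skin markers. Tenocyte sums at 11 months (1442 to 1953 units) all lie below those at 2 months, adipocyte sums spread more widely at 11 months, and the skin sum is highest in 11 months replicate 4 (2494 units).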

How the data were processed

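Total RNA of 18 gastrocnemius samples was depleted of ribosomal RNA, copied into labelled single-stranded cDNA and hybridised to whole-transcript arrays, per the labels' protocols. Expression Console 1.2.1 with RMA and the build mm8 are named per the submitters' processing notes, and GeneSpring GX 14.9 in the series text. The authors deposited linear intensity values for 15300 probesets; how these were selected is not given in the sources used here. Arrays have no read depth, so their number limits the precision.

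The log2 of each value was fitted with limma 3.58.1 in R 4.3.3 (lmFit and eBayes, 1 mean for each of 3 ages, 18 arrays), with Benjamini-Hochberg adjustment over all probesets and a threshold of 0.05. No value was dropped or imputed. The labels call the samples biological replicates and do not say how many animals went into each. The p-values therefore measure only the spread between these samples, and how far it is a spread between single animals is not known. The fit was tested on simulated data with independent noise for each probeset. The simulation held no shift of signal range with age, so it cannot show how such a shift affects the calls. Of the probesets 13592 had 1 gene symbol in the platform annotation, 941 several and 767 none; 13542 matched RefSeq by gene number. A gene stands for its brightest probeset. Promoters came from RefSeq (GRCm38.p6), so no other coordinate is given. Figures were drawn with matplotlib 3.10.9.

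Named genes are the 25 largest called rises and falls, up to 4 called members per list and direction with the smallest p, and key members that were not called; exceptions are stated where they stand. The 35 gene lists, the 15 marker lists and the genes were chosen with earlier results of these data known. Alternatives covered scaling, dim probesets, the variance model, array weights, the replicate number, the arrays in the fit, the Tukey test of the series text, thresholds, the array signal range and leaving out each array.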

Additional observations from a re-analysis of the deposited data

Results flagged for a closer look

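Single samples stood apart from the other 5 of their age in 20 of 382 sets of 6 values, the 191 genes named in the text at 2 and at 11 months. The criterion was the gap to the nearest sample divided by the range, against Dixon's critical value for 6 samples. Chance alone marks about 1 in 20 such sets. Values are log2 intensities, each with that of the nearest sample of the same age in brackets. In 11 months replicate 1 Hspb8 was below at 11.25 (11.59) and Tgfb2 was below at 7.14 (7.25). In 11 months replicate 2 Gpx3 was above at 9.16 (8.89), Pgam2 was above at 12.12 (12.04) and Slc25a25 was above at 7.97 (7.17). In 11 months replicate 3 Dkk3 was above at 7.77 (7.31) and Mettl21e was above at 5.40 (5.13). In 11 months replicate 4 Asb15 was below at 9.60 (9.74), Bmp1 was above at 7.76 (7.63), Cdk1 was above at 4.96 (4.85), Gbp7 was below at 7.12 (7.38) and Wif1 was above at 5.79 (5.40). In 11 months replicate 5 B2m was above at 10.39 (10.07), Cdkn2a was below at 6.03 (6.23) and Cpa3 was above at 6.13 (5.77). In 11 months replicate 6 Nnat was below at 5.98 (6.52). In 2 months replicate 2 Ryr1 was above at 12.72 (12.54). In 2 months replicate 4 Chodl was below at 6.39 (6.81), Jph2 was below at 11.70 (11.97) and Kera was below at 6.25 (7.04).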

How the results depend on the processing

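The threshold, the array signal range and single arrays moved the counts most. Against 2919 calls (1820 higher, 1099 lower), the signal range as a covariate gave 959 (523 and 436), leaving out together the 3 arrays with the smallest range (numbers 4 and 6 at 2 months and number 5 at 25 months) gave 1555 (1011 and 544), an adjusted p under 0.01 gave 1256 (893 and 363) and a fold of at least 1.5 gave 138 (85 and 53). Leaving out single arrays gave 1895 to 3787 calls, 1260 to 2252 of them higher and 635 to 1535 lower, with the lowest total and the fewest falls without 11 months replicate 5. The other alternatives gave 2185 to 3003, including 2299 by the Tukey test and 2542 after quantile normalization. The share of calls that were higher was 62.4%, 52.2% after quantile normalization, 56.3% after median centring and 54.5% with the covariate. Same-numbered samples of 2 ages correlated from -0.33 to 0.42 in their deviations from the age means, above 0.1 in 7 of 18 pairs. Between 2 and 11 months 4 of 6 such pairs were above 0.1. Samples of unlike number and age correlated from -0.45 to 0.47. These ranges overlap, so whether replicate numbers pair the samples was not decided. With the replicate block 2765 probesets were called (1742 higher, 1023 lower). For the difference between both steps, 287 calls became 624 with array weights, 151 after quantile normalization, 188 with the replicate block, 34 with the signal range covariate, 115 without the narrowest arrays, 45 at an adjusted p under 0.01 and 60 to 582 without single arrays. The cause of these shifts was not tested. Of 149 called genes named in the text 30 lost the call with the covariate, 4 (Frzb, Ogn, Smad2 and Sms) without the narrowest arrays, 2 (Lep and Ogn) by the Tukey test, 2 (Lep and Trp63) with array weights, 1 (Bhlhe41) after quantile normalization and 0 when any 1 array was left out. None of the alternatives turned the sign of a called gene named in the text. These genes were mostly picked for large changes or small p on the same arrays. Their kept calls therefore describe strong calls and not the called set as a whole.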

Other observations

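Other probesets that changed at least 2-fold had no single gene symbol and are given here because of their values. A probeset annotated to both Meg3 and Dlk1, neighbours in an imprinted cluster, fell from a mean of 8.14 at 2 months to 6.95 at 11 months (log2 change -1.19 ± 0.13, SE; adjusted p = 9.51e-06 in limma), with no overlap, and was 6.85 at 25 months. Which of the 2 transcripts it follows cannot be told apart. Probeset 6922109, without a symbol, was 6.22, 5.16 and 4.76 at 2, 11 and 25 months. Its change was -1.06 ± 0.23 (SE, adjusted p = 0.00343 in limma), and its arrays at 2 and 11 months overlapped. Probeset 6912947, which has no symbol here, was 8.40, 5.54 and 8.40 at 2, 11 and 25 months, and probeset 6921030 was 7.35, 5.19 and 7.40. Both were lower at 11 than at 2 months (changes -2.86 and -2.16, adjusted p = 3.69e-11 for each in limma). Both were higher at 25 than at 11 months, by 2.86 and 2.21 (adjusted p = 2.48e-11 for each). In these 2 probesets an effect of age cannot be told apart from another trait of the 11 months samples.

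Values of single samples are given for 2 clock genes and a fat hormone, all chosen after their values were seen, in the order of replicates 1 to 6. The clock activator Arntl was 8.08, 7.05, 7.48, 7.53, 6.52 and 6.77 at 2 months, 7.28, 7.18, 7.18, 8.45, 8.51 and 8.12 at 11 months and 7.50, 7.61, 7.32, 6.64, 6.61 and 6.84 at 25 months. Dbp, an output gene of the clock, was between 8.49 and 9.40 at 2 months, 9.21, 9.22, 9.33, 8.12, 8.30 and 8.63 at 11 months and 9.18, 9.14, 9.23, 9.04, 9.33 and 8.91 at 25 months. Replicates of different ages share numbers whose meaning the titles do not give, and the labels give no time of day. The fat hormone Lep was 6.16, 5.90, 7.51, 6.06, 6.34 and 5.40 at 11 months.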
